A study of Homo sapiens with 6 samples.

Results

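The genes described here are 9 complement components and regulators, out of 25368 gene symbols in each table, and all 9 had a row in both tables. They were chosen by name: C3, C1R, C1S, CFB, CFD, CFI, SERPING1, CD55 and CD46. RNA-seq libraries came from MRC5, a human embryonic lung fibroblast line that had been immortalized with hTERT, and there was 1 library for each of 6 conditions. In the first table, MRC5 cells were infected with adenovirus carrying an empty vector (control), FLAG-tagged JUN WT or FLAG-tagged JUN AA, in which the serines phosphorylated by JNK were replaced by alanine, so all 3 cultures had been exposed to the virus. In the second table, untreated MRC5 cells were set beside iCAFs, which are MRC5 cells kept for 7 days in medium conditioned by the breast cancer line MDA-MB-231, and beside iCAFs given 1 µM of the JNK inhibitor JNK-IN-8 for 48 h (iCAFs+JNKi). Per the labels the iCAFs received vehicle or JNKi. The conditioned medium was collected without serum and MRC5 cells are maintained with serum, so in iCAFs the tumour factors and a change of serum cannot be told apart.

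Complement is a cascade of blood and tissue proteases that marks cells for clearance and can lyse them. In the classical pathway the proteases C1r and C1s cleave the next components of the cascade, and in the alternative pathway factor D cleaves factor B, which then acts on C3. C3 is the protein on which all routes converge, and soluble and membrane-bound inhibitors limit the cascade on the body's own cells. Most plasma complement is made in the liver, but fibroblasts make several of these proteins locally, and inflammatory cytokines and interferons are known inducers of their genes.

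Expression was given as FPKM (fragment numbers corrected for exon length and for library size), which allows levels of different genes to be compared within a library. Differences are in log2(FPKM + 1), on which changes of genes at low levels come out too small, and a difference of at least 1 is called 2-fold. With 1 library per condition there is no replicate error and no test, so higher and lower below refer to these 6 libraries only, and the read depth is unknown. JUN, the overexpressed gene, was at 25.5 FPKM in the control, 4543 with JUN WT and 291 with JUN AA. JUN mRNA was thus 15.6 times higher in JUN WT than in JUN AA. In every comparison of JUN WT with JUN AA the lost phosphorylation sites and the amount of JUN cannot be told apart. Over the genes averaging 1 FPKM or more across a table, which were 10311 in the JUN table and 11780 in the JNKi table, the median difference from the control was 0.15 for JUN WT and -0.02 for JUN AA, and JUN WT differed from JUN AA by 0.18. It was -0.06 for iCAFs against MRC5, and JNKi-treated cells stood at -0.10 against iCAFs and -0.16 against MRC5. Of the genes changed at least 2-fold, the share that was higher in JUN AA than in the control was 58.4%, and 26.1% once the libraries were set to an equal FPKM sum. That share was 67.1% in JUN WT against control and 45.5% with differences centred on the median gene. It was 54.3% in JUN WT against JUN AA, 82.9% after rescaling and 33.3% after centring. With JNKi it was 53.3% against iCAFs and 48.1% against MRC5, and 64.0% and 65.9% after centring. All 10 fibroblast markers were above 1 FPKM in at least 1 library of each table, with sums from 4040 to 6263 FPKM per library. PTPRC, which marks leukocytes, was at most 0.015 FPKM, and of the 4 hepatocyte markers 3 were listed at 0 in the JUN table and 4 in the JNKi table, with ALB at 0.043 FPKM in JUN WT. The epithelial genes CDH1 and KRT5 were listed at 0, and the keratin genes KRT8 and KRT18 (5.80 to 36.7 FPKM) and the macrophage marker CD68 (31.1 to 85.7 FPKM) were above 1 FPKM. Also above 1 FPKM were the keratin gene KRT19 in MRC5 only (1.78 FPKM) and the leukocyte and macrophage marker LYZ in JUN AA only (2.03 FPKM). The read counts behind these values were not available here, so a listed 0 here and below does not show that a gene was not expressed.

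Of the 9 genes, 6 passed the filter on low values in each table and 5 did so in both. C1R, C1S, SERPING1, CD55 and CD46 passed in both tables, CFD passed only in the JUN table and C3 only in the JNKi table, where it was at 1.18 FPKM in MRC5 and passed through its values in the other libraries. CFB and CFI passed in neither table as deposited.

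**Figure D1:**
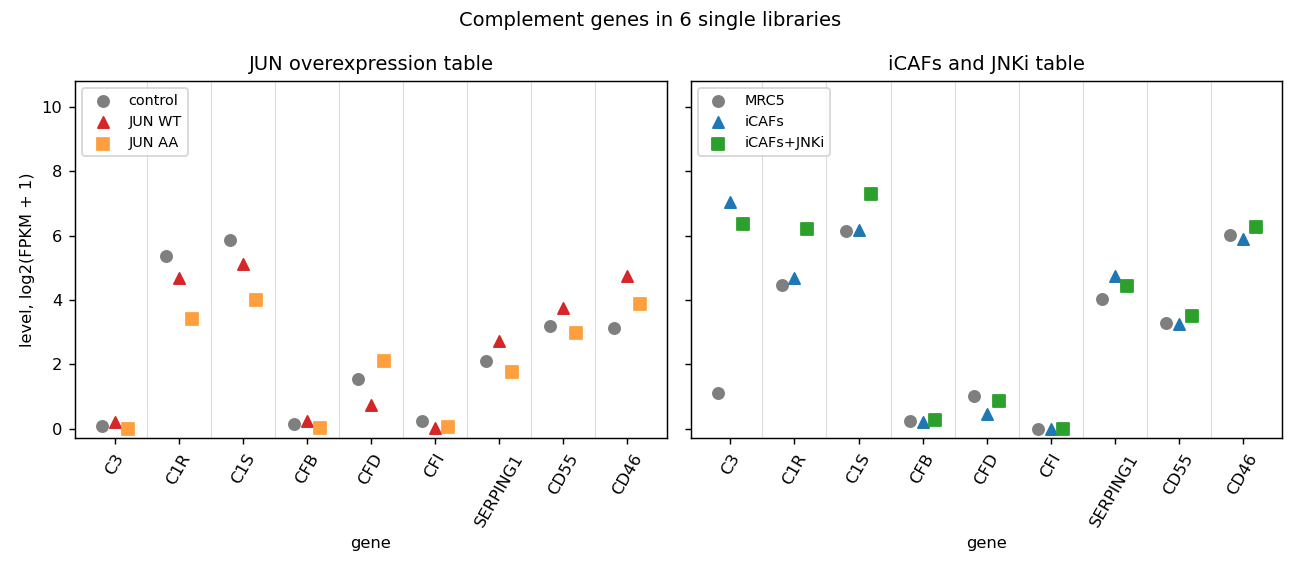
Levels of the 9 complement genes (x axis) as log2(FPKM + 1) (y axis) in the JUN overexpression table (left) and the JNKi table (right), with 1 point per library. C3 stands at 1.12 in MRC5 and 7.04 in iCAFs, C1R and C1S are lowest in JUN AA and highest in iCAFs+JNKi, and CFB and CFI lie near 0 throughout.

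Promoter sequences are shown for C1R and CD46, the genes with an entry whose levels differed at least 2-fold between libraries of a table and that were well above 0, and for CFB, whose level was near 0. RefSeq windows on GRCh38.p14, running from 250 bases before to 50 bases after a start site, were found for 6 of the 9 genes. C3, C1S and SERPING1 had no entry. Each window is written 5′ to 3′ along the gene, and capitals mark the searched motifs.
C1R, upstream start, chr12:7092396-7092695, minus strand: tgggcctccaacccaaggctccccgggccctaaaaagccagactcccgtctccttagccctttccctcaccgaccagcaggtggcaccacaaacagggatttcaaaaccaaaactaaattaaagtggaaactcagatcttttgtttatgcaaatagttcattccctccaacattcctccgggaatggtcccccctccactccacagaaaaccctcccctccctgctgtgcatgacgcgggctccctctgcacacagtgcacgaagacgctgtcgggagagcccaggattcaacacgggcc
C1R, downstream start, chr12:7091844-7092143, minus strand: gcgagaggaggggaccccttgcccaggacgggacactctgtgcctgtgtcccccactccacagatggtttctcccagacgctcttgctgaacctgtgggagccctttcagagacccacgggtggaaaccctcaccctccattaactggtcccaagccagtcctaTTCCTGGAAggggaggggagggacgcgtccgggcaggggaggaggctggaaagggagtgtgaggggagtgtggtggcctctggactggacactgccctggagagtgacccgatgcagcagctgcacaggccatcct
CD46, upstream start, chr1:207751788-207752087, plus strand: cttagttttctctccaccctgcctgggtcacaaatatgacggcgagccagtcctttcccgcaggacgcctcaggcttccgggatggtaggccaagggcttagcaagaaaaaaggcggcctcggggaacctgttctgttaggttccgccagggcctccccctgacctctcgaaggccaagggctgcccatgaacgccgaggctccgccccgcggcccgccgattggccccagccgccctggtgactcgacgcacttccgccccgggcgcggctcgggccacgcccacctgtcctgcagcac
CFB, chr6:31945845-31946144, plus strand: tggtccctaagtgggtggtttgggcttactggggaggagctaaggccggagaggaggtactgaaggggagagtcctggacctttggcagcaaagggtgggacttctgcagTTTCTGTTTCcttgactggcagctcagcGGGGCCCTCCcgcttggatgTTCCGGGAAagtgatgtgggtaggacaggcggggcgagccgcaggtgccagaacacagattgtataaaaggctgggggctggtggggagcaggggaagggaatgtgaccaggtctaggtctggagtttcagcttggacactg
The motifs searched on both strands were the AP-1 heptamer (TGACTCA or TGAGTCA), the CRE octamer (TGACGTCA), the core of the interferon-stimulated response element, ISRE (GAAA, any 2 bases, GAAA), the STAT-binding GAS element (TTCNNNGAA) and the NF-kB consensus. Of the 35116 promoter windows in the RefSeq table, 4.95% held the AP-1 heptamer, 1.85% the CRE octamer, 3.57% the ISRE core, 7.66% the GAS element and 11.3% the NF-kB consensus. The downstream C1R window held a GAS match, TTCCTGGAA, whose first base lies at position -86 from the start site. The CFB window held an ISRE match at -140, an NF-kB match at -112 and a GAS match at -92, none overlapping another. The upstream C1R window and the windows of CD46, CD55, CFD and CFI held none of these letters. A match describes the sequence only.

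C3, the convergence point of the cascade, lies at 6677715 to 6730573 of chromosome 19 (GRCh37). Its level was 1.18 FPKM in MRC5 cells, 130 in iCAFs and 80.8 with JNKi. The level was 111 times higher in iCAFs than in MRC5, a log2 difference of 5.91 and the 5th highest among 11780 genes. C3 was the only member at least 2-fold higher, with 1.94% of all genes, and no member was 2-fold lower, with 1.71% of all genes. In the iCAFs library C3 was the highest of the 9 genes and accounted for 40.7% of their summed FPKM, against 0.65% in MRC5. Within the library it ranked 483rd from the top, where 11526th was its place in MRC5.

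With JNKi, C3 was at 62.0% of its iCAFs level, a log2 difference of -0.68, and was thus still 68.7 times its level in MRC5. This did not reach 2-fold, and 4.95% of all tested genes had a lower difference. Beside it stand 11 listed genes that were also at least 2-fold higher in iCAFs than in MRC5. They are 7 of 14 listed acute-phase and NF-κB genes, 10 of which passed the filter, and 4 of 8 listed cytokines, 4 of which passed, where 1.94% of all genes were higher. SAA1, SAA2, IL1A and IL1B were listed at 0 in MRC5, and IL6 was at 0.63 FPKM there. These genes passed the filter only through the libraries kept in conditioned medium, so their being higher in iCAFs follows in part from the filter. PTX3 of the acute-phase list went the other way, at 111, 62.5 and 9.56 FPKM in MRC5, iCAFs and the JNKi-treated cells. SAA2 and SAA1, which encode serum amyloid A and share near-identical sequences, were at 112% and 91.8% of their iCAFs level with JNKi. NFKBIZ, which encodes the NF-κB cofactor IκBζ, was at 82.2%, and CEBPD of the same list was at 111%. Others of that list kept less, with SOCS3 at 57.8%, TNFAIP3 at 43.7% and NFKBIA at 40.8%. The cytokine genes were lower still, with IL1B at 13.4%, IL6 at 12.8%, IL1A at 6.08% and LIF at 3.92% of their iCAFs level. Of the 11 genes, 4 kept a larger share than C3 and 7 a smaller share. C3 and these genes were picked for a high level in the same iCAFs library by which the share is divided. A lower level with JNKi thus follows in part from the choice. The part of these cytokines in the C3 level was not tested.

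**Figure D2:**
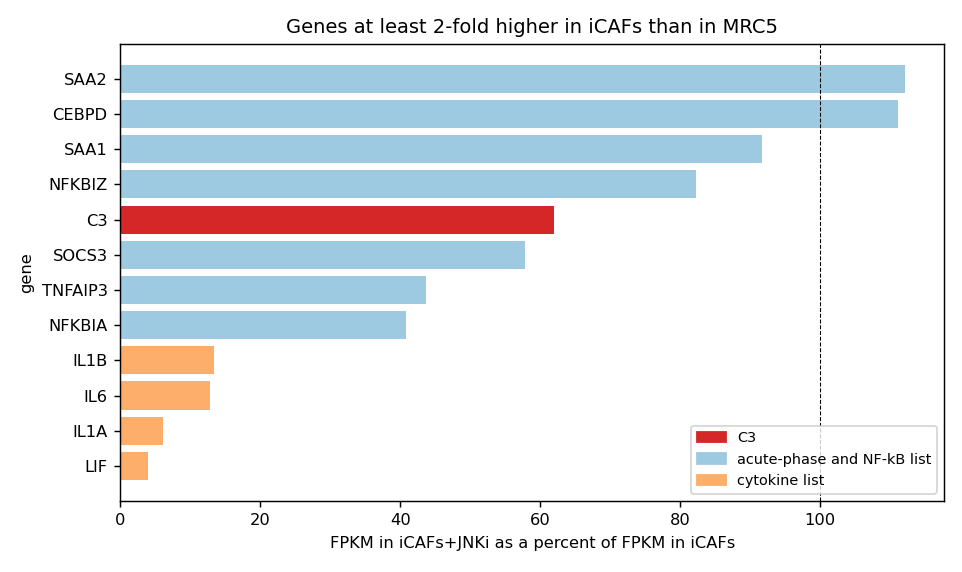
FPKM in iCAFs+JNKi as a percent of FPKM in iCAFs (x axis) for C3 and the 11 listed genes (y axis) that were at least 2-fold higher in iCAFs than in MRC5, with the dashed line at equal levels. C3 stands at 62.0%, between NFKBIZ at 82.2% and SOCS3 at 57.8%, and the 4 cytokine genes stand at 13.4% or less.

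In the JUN table C3 stayed near the lower end of the scale. It was at 0.067 FPKM in the control and 0.15 in JUN WT, and it was listed at 0 in JUN AA, under the filter in this table, and at an unknown depth these values cannot show a difference. Among the listed cytokines IL6 was at 0.81, 2.43 and 0.25 FPKM and IL1B at 0, 0.23 and 0.12 FPKM, each for the control, JUN WT and JUN AA. Higher values were seen for LIF, at 3.04, 10.9 and 8.89 FPKM, and for the interferon gene IFNB1, at 0.38, 11.3 and 0 FPKM in the same order.

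C1R and C1S encode the proteases of the first complement complex, which cuts C4 and C2 once the complex has bound its target. They lie tail to tail on chromosome 12 of GRCh37, C1S on the plus strand from 7096351 to 7178336 and C1R on the minus strand from 7187513 to 7245203, with 9177 bp between their 3′ ends. C1R was at 40.6 FPKM in the control, 24.9 with JUN WT and 9.58 with JUN AA. C1S stood at 57.3, 33.9 and 15.0 FPKM in these libraries. Each gene was thus highest in the control and lowest in JUN AA. The log2 differences were -0.69 for C1R and -0.74 for C1S in JUN WT against control, which is under 2-fold.

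In JUN AA against control the differences were -1.98 for C1R and -1.87 for C1S, a level 4.24 and 3.82 times lower. They were the 2 members at least 2-fold lower among the 6 that passed, where 3.77% of all genes were, and no member was 2-fold higher, where 5.29% were. Only 0.51% of the tested genes had a lower difference than C1R. Compared directly, C1R was 2.59 times and C1S 2.26 times higher in JUN WT than in JUN AA, a comparison that shares its libraries with the others and in which the background of genes 2-fold higher was 6.65%. For C1S this was under 2-fold with differences centred on the median gene, at 0.94, and after removal of length and GC trends, at 0.61.

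In the JNKi table the same genes were at their highest with the inhibitor. C1R was at 20.97 FPKM in MRC5 cells, 24.7 in iCAFs and 73.2 with JNKi. C1S was at 69.5, 71.6 and 154 FPKM. MRC5 and iCAFs thus lay close together, with log2 differences of 0.23 and 0.04, and the library with JNKi stood above both. Against iCAFs, C1R was 2.96 times and C1S 2.15 times higher with JNKi, log2 differences of 1.53 and 1.09. These were the only members at least 2-fold higher there, where 2.25% of all genes were, and no member was 2-fold lower, where 1.97% were. Against MRC5, C3, C1R and C1S were at least 2-fold higher with JNKi, where 3.28% of all genes were, and no member was 2-fold lower, where 3.53% were.

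The proportion of C1R to C1S was close across the JUN table and highest with JNKi in the other. C1R was 0.71, 0.73 and 0.64 times the level of C1S in the control, JUN WT and JUN AA, and 0.30 times in MRC5, 0.35 in iCAFs and 0.48 with JNKi. C1S was above C1R in every library. Likeness was measured as the root mean square distance over 4 log2 differences (JUN WT and JUN AA against control, iCAFs against MRC5, iCAFs+JNKi against iCAFs) among the 10020 genes passing the filter in both tables. The gene nearest to C1R was C1S, at 0.24, followed by ADAMTS7 and ITGA11, and those nearest to C1S were ITGA11 at 0.17, COL6A1 at 0.18 and C1R at 0.24. ITGA11 encodes a collagen-binding integrin chain and COL6A1 a chain of collagen VI. By distance from C1R, CD55 was gene 3007 of the 10020 (1.26), SERPING1 gene 5150 (1.41) and CD46 gene 9376 (1.89).

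Fibroblast markers and interferon-stimulated genes were read beside these values. Among 10 fibroblast markers, 4 fell short of the control by 2-fold or more in JUN WT (3.39% of all genes), and in JUN AA 3 were lower (3.77% of all genes) and 1 higher (5.29%). With JNKi 6 of 10 were at least 2-fold higher than in iCAFs (2.25% of all genes), COL1A1 going from 1094 to 2305 FPKM. Among 16 interferon-stimulated genes, a class to which C1R, C1S and SERPING1 are often assigned, JUN WT exceeded the control at least 2-fold in 9 (6.92% of all genes), and JUN AA was lower in 15 (3.77%). By any amount 14 of the 16 were higher in JUN WT than in the control, as were 6282 of all 10311 tested genes. STAT2 (25.9, 17.4 and 5.71 FPKM in the control, JUN WT and JUN AA) and IRF1 (12.6, 8.34 and 3.69 FPKM) stood in the order seen for C1R and C1S. Of the 16, there were 12 that passed the filter in the second table, where with JNKi 1 was at least 2-fold higher (2.25% of all genes) and 2 lower (1.97%) than in iCAFs. The part of either group in the levels of C1R and C1S was not tested. In bulk libraries fewer cells of a kind and less RNA per cell cannot be told apart. C1R shares exon bases on the same strand with its neighbour C1RL in the GENCODE annotation of GRCh37, and C1RL was at 2.58 to 7.38 FPKM over the 6 libraries.

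SERPING1 encodes the C1 inhibitor, a serpin that inactivates C1r and C1s, and lies at 57364860 to 57386644 of chromosome 11 (GRCh37). Its level was 3.32 FPKM in the control, 5.59 with JUN WT and 2.39 with JUN AA. In the second table it was at 15.5 FPKM in MRC5 cells, 25.6 in iCAFs and 20.5 with JNKi. None of its differences was 2-fold on the log2(FPKM + 1) scale, the largest being 0.96 in JUN WT against JUN AA, followed by 0.69 in iCAFs against MRC5. Its nearest genes in pattern, by the measure given above, were S1PR3, PGK1 and EXT2, at distances of 0.12, 0.13 and 0.13. The difference of 0.96 is a ratio of 2.33 in FPKM itself, and it passed 2-fold at 1.31 with the libraries set to an equal FPKM sum and at 1.19 with a pseudocount of 0.1. It was 0.77 with differences centred on the median gene and 0.64 after removal of length and GC trends.

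Protease mRNA was set against inhibitor mRNA within each library. The summed FPKM of C1R and C1S was 29.5 times that of SERPING1 in the control, 10.5 times in JUN WT and 10.3 times in JUN AA. The ratio was thus almost the same in the JUN libraries, although the sum itself was 58.8 FPKM with JUN WT and 24.6 with JUN AA. In the second table the ratio was 5.85 in MRC5, 3.76 in iCAFs and 11.1 with JNKi. It was lowest in iCAFs, where SERPING1 was highest, and highest with JNKi, where the protease sum was 227 FPKM after 96.3 FPKM in iCAFs.

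**Figure D3:**
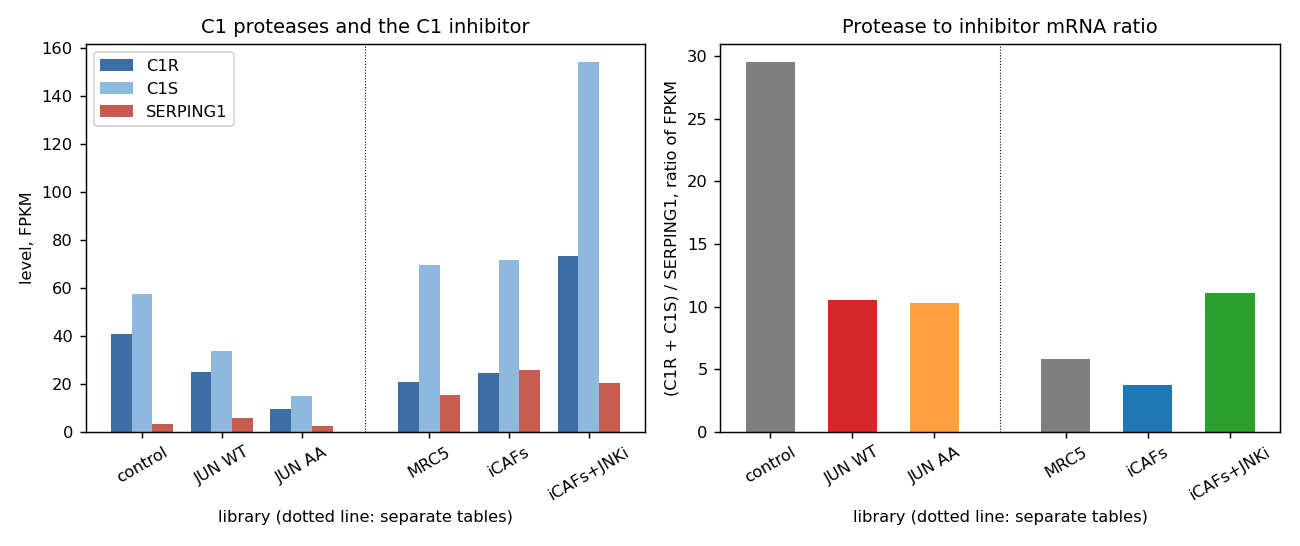
Left, FPKM (y axis) of C1R, C1S and SERPING1 in each library (x axis). Right, the ratio of summed C1R and C1S FPKM to SERPING1 FPKM (y axis), with a dotted line between the separately normalised tables. The ratio stands at 29.5 in the control and 10.5 and 10.3 in the JUN libraries, and at 11.1 with JNKi after 3.76 in iCAFs.

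CD46 and CD55 are cell surface regulators that protect host cells. CD46 is a cofactor for the cleavage of deposited C3b by factor I, and CD55 speeds the decay of the enzymes that cleave C3. They lie on chromosome 1 of GRCh37, CD55 from 207494864 to 207560149 and CD46 from 207925382 to 207968858, both on the plus strand. CD46 was at 7.74 FPKM in the control, 25.99 with JUN WT and 13.7 with JUN AA. It was highest in JUN WT, 3.36 times the control, and lowest in the control. Its log2 difference of 1.63 in JUN WT against control was higher than in 98.8% of the tested genes, and CD46 was the only member at least 2-fold higher, where 6.92% of all genes were. No member was 2-fold lower in that comparison, where 3.39% of all genes were. In JUN AA against control the difference was 0.75, under 2-fold, and in JUN WT against JUN AA it was 0.87.

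The CD46 transcript has a GC content of 38.2%, the lowest of the 9 genes, and its difference in JUN WT was 1.30 once trends with length and GC were taken out, an alternative added after seeing the data. CD46 shares exon bases with MIR29B2CHG on the opposite strand. In the second table CD46 was at 63.7 FPKM in MRC5 cells, 58.8 in iCAFs and 76.1 with JNKi, with no difference of 2-fold. The genes nearest to CD46 in pattern were TCEAL3, LOX and TMEM38B, at distances of 0.14, 0.19 and 0.20. LOX encodes lysyl oxidase, which cross-links collagen.

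CD55 varied least among the genes that passed in both tables. It was at 8.15 FPKM in the control, 12.6 with JUN WT and 6.87 with JUN AA, and at 8.73, 8.49 and 10.3 FPKM in MRC5, iCAFs and the JNKi-treated cells. Its largest difference was 0.79, in JUN WT against JUN AA, and no library stood apart. The level of CD46 was 0.95 times that of CD55 in the control and 2.06 and 1.999 times in JUN WT and JUN AA. It was between 6.93 and 7.39 times in the libraries of the second table. The genes nearest to CD55 were MAGI2-AS3, KDELR2 and BTD, all at 0.04.

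The genes of the alternative pathway were low. CFD encodes factor D, the protease that cleaves factor B, and lies at 859453 to 867884 of chromosome 19 (GRCh37). Its level was 1.89 FPKM in the control, 0.67 with JUN WT and 3.27 with JUN AA, lowest in JUN WT and highest in JUN AA. Against the control it was 2.83 times lower in FPKM with JUN WT, a log2 difference of -0.79. It was 4.88 times lower in JUN WT than in JUN AA, a log2 difference of -1.35, where 5.61% of all genes were at least 2-fold lower. That difference was -0.91 after removal of length and GC trends. CFD shares exon bases with MED16 on the opposite strand. MED16, at 28.1 to 35.2 FPKM in these libraries, was likewise lowest in JUN WT and highest in JUN AA, and the kit named in the labels is not stated to keep strand, so reads over the shared bases cannot be told apart. In the second table CFD was at 1.02, 0.37 and 0.83 FPKM in MRC5, iCAFs and the JNKi-treated cells, under the filter. MED16 was at 20.4, 17.9 and 17.0 FPKM there, lowest with JNKi, while CFD was lowest in iCAFs.

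CFB encodes factor B, which joins C3b in the enzyme that cleaves further C3. It was at 0.11 FPKM in the control, 0.19 with JUN WT and 0.013 with JUN AA, and at 0.19, 0.16 and 0.20 FPKM in MRC5, iCAFs and the JNKi-treated cells. In iCAFs, where C3 was at 130 FPKM, the log2 difference of CFB from MRC5 was -0.04. CFB is on chromosome 6 from 31913427 to 31919863, in the MHC region, and shares exon bases with C2. The deposited CFB values have more than 6 decimals, unlike those of the other 8 genes, and return to 6 decimals in all 6 libraries when multiplied by 7, within 0.02 of a unit of the last decimal. A mean over 7 entries of the gene would leave this mark, and if the values are such means their sums would be 1.32, 1.10 and 1.42 FPKM in the second table. Multiplied in this way, CFB would pass the filter in that table, with a mean of 1.28 FPKM and no 2-fold difference. In the JUN table the mean would be 0.73 FPKM, under the filter, with a difference of 1.10 between JUN WT and JUN AA.

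CFI encodes factor I, the protease that inactivates C3b, and lies at 110652164 to 110723306 of chromosome 4 (GRCh37). Its level was 0.18, 0.017 and 0.036 FPKM in the control, JUN WT and JUN AA and was listed at 0 in the 3 libraries of the second table. These levels allow no comparison. CFI, C3 and C1S each share exon bases on the same strand with another annotated gene, a long noncoding RNA or a readthrough gene.

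**Figure D4:**
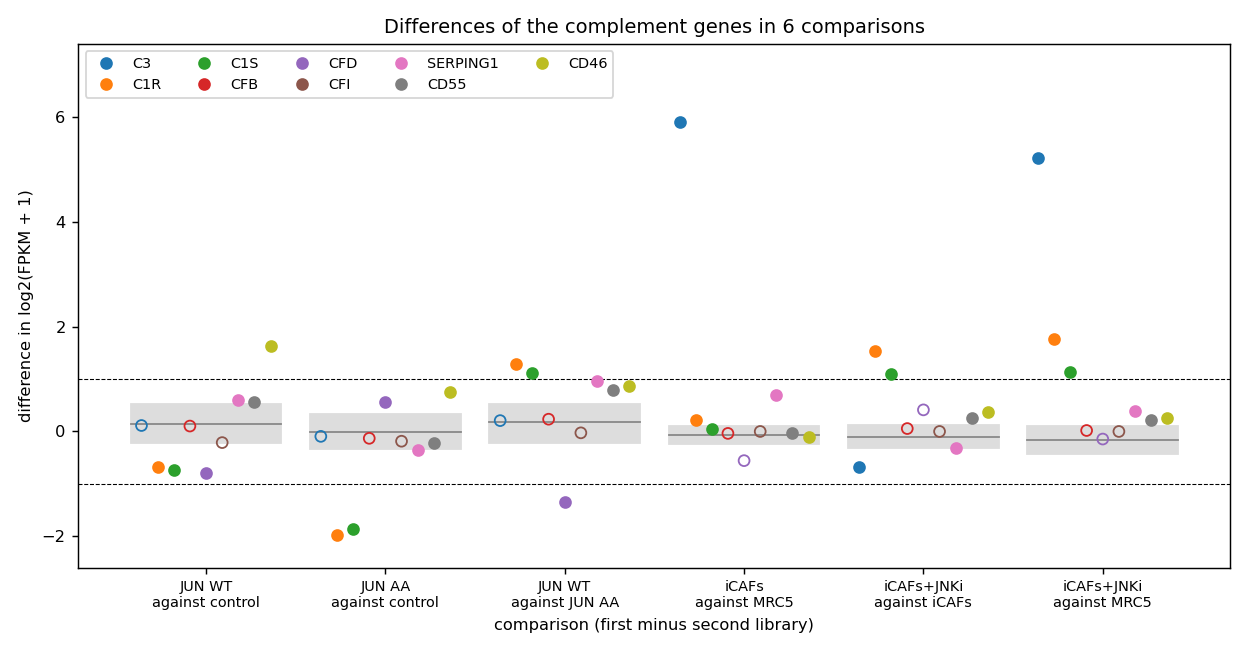
Difference in log2(FPKM + 1) (y axis) of the 9 genes in 6 comparisons (x axis), with filled points for genes that passed the filter in the table and open points for those that did not. Grey boxes span the lower to upper quartile of all tested genes with the median as a line, and dashed lines mark 2-fold. C3 stands at 5.91 in iCAFs against MRC5, C1R and C1S lie below -1.8 in JUN AA against control and above 1 with JNKi against iCAFs, and CD46 lies at 1.63 in JUN WT against control.

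Over the members that passed the filter, the median log2 difference was -0.06 for JUN WT and -0.28 for JUN AA, each against the control, and 0.91 between JUN WT and JUN AA. It was 0.14 for iCAFs against MRC5, and with JNKi 0.31 against iCAFs and 0.76 against MRC5. The medians of all tested genes, given at the start, were 0.15, -0.02 and 0.18 in the JUN table and -0.06, -0.10 and -0.16 in the JNKi table. With JNKi against MRC5 all 6 members that passed were higher by any amount, as were 3956 of all 11780 tested genes. In the other comparisons the members lay on both sides of 0. The 2-fold changes came from C3, C1R, C1S, CD46 and CFD.

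The remaining genes of the cascade were read from a list of 51 symbols, of which 7 passed the filter in the JUN table and 9 in the JNKi table, while 44 and 40 were under 1 FPKM in every library of the table. In JUN WT against control 2 of the 7 were 2-fold higher (6.92% of all genes) and 1 lower (3.39%), and in JUN AA against control 1 was lower (3.77%). In JUN WT against JUN AA 2 of the 7 were higher (6.65%) and 1 lower (5.61%), which became 0 and 2 with differences centred on the median gene. Of the 9 genes, 1 was 2-fold lower in iCAFs against MRC5 (1.71% of all genes), 3 were higher with JNKi against iCAFs (2.25%) and 3 with JNKi against MRC5 (3.28%). C1QA and C1QB, for chains of the C1q recognition protein, and MBL2 were listed at 0 in all 6 libraries, and C1QC was at 0.043 FPKM in JUN WT and at 0 elsewhere. COLEC10, a collectin that recognises sugars, was at 6.03 FPKM in the control, 0.40 with JUN WT and 2.04 with JUN AA. It was at 4.52, 5.81 and 48.0 FPKM in MRC5, iCAFs and the JNKi-treated cells. COLEC10 was thus lower than its control in both JUN libraries and highest with JNKi, the order also given above for C1R and C1S in the second table.

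MASP1, which encodes the collectin-associated proteases MASP-1 and MASP-3, was at 8.36, 5.81 and 19.8 FPKM in MRC5, iCAFs and the JNKi-treated cells. It was at 18.2, 12.3 and 10.4 FPKM in the control, JUN WT and JUN AA, with no 2-fold difference. C7, a component of the membrane attack complex, was at 0.33, 0.10 and 3.66 FPKM in the second table and passed the filter only through the library with JNKi. In JUN WT against control the members of the list at least 2-fold higher were CD59, the surface inhibitor of the membrane attack complex, at 84.9 after 34.0 FPKM, and C1QBP, which binds C1q but is mainly mitochondrial, at 136 after 58.7 FPKM. CD59 was thus higher in the library in which CD46 was higher. This did not hold in the second table, where CD59 was at 124, 99.1 and 101 FPKM in MRC5, iCAFs and the JNKi-treated cells. There CD59 was highest in MRC5 and CD46 was highest with JNKi. CLU, which encodes the fluid-phase inhibitor clusterin, was at 108 FPKM in MRC5 cells, 35.6 in iCAFs and 65.8 with JNKi, so it was lowest in iCAFs, where C3 was highest. In the JUN table CLU was at 77.8, 94.4 and 42.9 FPKM, with a log2 difference of 1.12 in JUN WT against JUN AA.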

How the data were processed

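RNA-seq was performed on 6 libraries of MRC5 cells, 1 per condition. The authors mapped reads to hg19 with HISAT2 2.1.0 and deposited FPKM per gene from StringTie 2.1.1 in 2 tables, per the methods and the submitters' processing notes. Annotation, strand setting and depth are not given in the sources used here. Of rows sharing a symbol, that with the highest mean was used (25370 rows, 25368 symbols).

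Differences in log2(FPKM + 1) were computed within a table (Python 3.11.15, numpy 2.4.6, pandas 2.3.3, matplotlib 3.10.9). Shares of genes called used a mean FPKM of 1 or more. No test was made, each condition having 1 library. The members and lists were chosen with earlier results of these data known. All 9 members, listed complement genes changed at least 2-fold and the 3 genes nearest in pattern to each member passing in both tables are named. The C1q chains, MBL2 and the genes sharing exon bases were named after their values were seen. Positions came from GENCODE on GRCh37 and promoters from RefSeq on GRCh38.p14. Transcript length and GC content were found for 91.9% and 91.8% of tested genes in the JUN and JNKi tables. The procedure was tested on simulated data. Alternatives were another pseudocount (0.1), libraries set to an FPKM sum of 1000000, centring on the median gene, no filter, a mean of 5 FPKM and summed rows, with trend removal in 20 bins and CFB multiplied by 7 added after seeing the data.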

Additional observations from a re-analysis of the deposited data

How the results depend on the processing

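No member difference of 2-fold or more changed sign under any alternative. Smaller ones did with centring, namely C3 (-0.04) and CFB (-0.05) in JUN WT against control, CFB (0.02) and CD55 (0.03) in iCAFs against MRC5 and CFD (0.02) in iCAFs+JNKi against MRC5, and the members' median in JUN WT against control was 0.10 without the filter, after -0.06. A value was taken to have moved at a change of at least 0.25 on the log2 scale or of more than 1.5 times for a count, limits chosen here because there are no replicates. Of 126 counts and medians of the members recomputed under 7 alternatives, 113 stayed within these limits. In JUN WT against control no member was 2-fold lower as reported, and 1 was with a pseudocount of 0.1 and with rescaled FPKM (CFD) and 1 with length and GC trends removed (C1S). In JUN AA against control the median of the members that passed was -0.28, and -0.59 with rescaled FPKM and -1.04 at a mean of at least 5 FPKM, where 4 genes remained. In JUN WT against JUN AA, 2 members were 2-fold higher, which became 3 with a pseudocount of 0.1, 5 with rescaled FPKM, 1 with centring and 1 with trends removed. In that comparison 1 member (CFD) was lower, and 0 at a mean of at least 5 FPKM, which CFD does not reach, and 0 with trends removed. The median there was 0.91, and 1.25 with rescaled FPKM and 0.62 with trends removed. In iCAFs+JNKi against MRC5 the median was 0.76, and 0.25 over all 9 genes without the filter. Of 366 values of single members, 38 moved. The 2 filter settings and summed rows leave the value of a single member as it was, and centring shifts it by at most 0.18. Under these settings a single value could not move, so those that stayed there are no sign of stability. Summed rows likewise left the counts and medians of the members as they were. Of 84 counts of the wider list, 12 moved. Apart from the changes that follow from the construction of an alternative (fewer or more genes, another scale), the cause was not tested. No paired analysis was possible because each group has 1 library. The unknown depth limits all statements on C3 in the JUN table, CFB, CFD and CFI.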
